A study of Mus musculus with 15 samples.

Results

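Transcription factors that pattern the head and the tongue were followed in newborn mouse tongue and epidermis by RNA-seq. The group was chosen by name and held 8 genes, Sox2, Pitx1, Six2, Eya1, Tbx1, Msc, Tcf21 and Msx1. Of these, 7 were analysed, out of 23420 mouse genes with read counts, and Six2 was not analysed here. All mice were newborns at postnatal day 1. The 15 libraries were 4 knockout (KO) tongues, 4 wild-type (WT) tongues, 4 KO epidermis samples and 3 WT epidermis samples. The KO genotype carried the targeted alleles of all 7 HAT/DESC protease genes, Tmprss11a to Tmprss11g, as Tmprss11a,b,c,d,e,f,g-/-. The series title says that the cluster was edited and that the study concerned the epidermal barrier. The labels name no Cre driver, founder or background strain. By the animal numbers in the labels, 6 of 9 animals gave both tissues, all 4 KO animals and 2 WT animals.

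These genes act early in the embryo, when the jaw, the palate, the teeth and the tongue form from ectoderm, cranial neural crest and head mesoderm. Sox2 and Pitx1 mark oral epithelium, among other places. Tbx1, Msc and Tcf21 act in the head mesoderm that gives the jaw and face muscles. Eya1 is a phosphatase and coactivator that works with homeodomain partners, and Msx1 is a homeodomain repressor of tooth and palate mesenchyme. Most tongue muscle, in contrast, comes from occipital somites, and tongue connective tissue comes largely from cranial neural crest.

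The reference table of promoters, from RefSeq on GRCm38.p6, held entries for 4 of the 7 genes, Sox2, Msx1, Tbx1 and Tcf21. The 250 bases before each RefSeq start are shown because the 4 genes differ in how evenly they were read from tongue to tongue, with Sox2 the most even and Tcf21 the most uneven of the 7 genes. Tbx1 has 2 listed starts, and the upstream one is shown. Each sequence runs 5′ to 3′ on the gene's own strand, and capitals mark CpG dinucleotides. Sox2 lies on the plus strand at chr3:34649745-34649994, Msx1 on the minus strand at chr5:37824586-37824835, Tbx1 on the minus strand at chr16:18590672-18590921 and Tcf21 on the minus strand at chr10:22820144-22820393.
Sox2: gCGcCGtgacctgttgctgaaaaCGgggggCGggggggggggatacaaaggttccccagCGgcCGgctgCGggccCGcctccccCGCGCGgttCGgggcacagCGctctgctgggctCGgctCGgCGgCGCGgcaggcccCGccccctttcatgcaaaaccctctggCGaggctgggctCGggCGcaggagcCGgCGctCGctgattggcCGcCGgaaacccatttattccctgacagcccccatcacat
Msx1: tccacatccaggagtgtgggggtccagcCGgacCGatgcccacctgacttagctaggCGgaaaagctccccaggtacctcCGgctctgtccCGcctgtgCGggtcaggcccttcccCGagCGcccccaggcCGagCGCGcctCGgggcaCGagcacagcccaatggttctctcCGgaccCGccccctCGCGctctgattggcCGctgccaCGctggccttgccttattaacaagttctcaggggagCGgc
Tbx1: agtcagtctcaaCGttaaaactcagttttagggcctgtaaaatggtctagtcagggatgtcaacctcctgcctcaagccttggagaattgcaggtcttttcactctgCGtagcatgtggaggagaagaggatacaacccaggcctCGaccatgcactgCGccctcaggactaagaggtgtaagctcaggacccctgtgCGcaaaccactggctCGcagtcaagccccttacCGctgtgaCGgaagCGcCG
Tcf21: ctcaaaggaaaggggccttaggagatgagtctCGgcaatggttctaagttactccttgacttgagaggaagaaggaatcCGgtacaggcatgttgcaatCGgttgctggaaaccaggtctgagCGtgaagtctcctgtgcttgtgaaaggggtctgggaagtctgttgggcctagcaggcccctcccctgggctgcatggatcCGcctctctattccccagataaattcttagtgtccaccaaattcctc

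The Sox2 window held 27 CpGs and a GC content of 72%, and the Msx1 window held 20 CpGs and a GC content of 68%. The Tbx1 window held 10 CpGs, and the window of its other start, at chr16:18588900-18589149, held 17. Tcf21 had 5 CpGs and a GC content of 52.4%, close to the medians of 6 CpGs and 52.4% over all 32851 promoters of the same length. Both strands were searched for 5 motifs. The E-box CANNTG, the sequence bound by bHLH factors such as Msc and Tcf21, was found in 66.2% of all promoters, and here once in Msx1 as CACCTG and once in Tbx1 as CATGTG. The SOX core ACAAT (27.7% of promoters), the bicoid-type homeodomain site TAATCC (6.25%), the MSX-type homeodomain site TAATTG (7.17%) and the T-box motif GGTGTGA (3.33%) were not in these 5 windows. These are letters in a window and say nothing about binding.

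On GRCm38, Sox2 is a gene of 1 exon block at chr3:34650405-34652461. Pitx1 lies at chr13:55825051-55836192, Tbx1 at chr16:18580979-18590671, Tcf21 at chr10:22817281-22820174 and Msx1 at chr5:37820485-37824583. Eya1, at chr1:14168954-14310235, and Msc, at chr1:14753346-14755992, are neighbours on chromosome 1 with 443.1 kb and 0 protein-coding genes between them. Sox2 lies inside the long noncoding gene Sox2ot without shared exon bases, and Sox2ot had 118 reads over all libraries. Pitx1 shares 108 exon bases with Gm28760, which had 37 reads, and Msc shares 539 exon bases with the antisense gene Gm9947, which had 64 reads. The labels name no kit that marks strand, so reads of overlapping genes on opposite strands cannot be told apart.

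Library totals ran between 10117819 reads in WT epidermis library 1 and 17819195 reads in KO tongue library 4. All levels below are CPM, read counts scaled to a TMM-adjusted library size, computed here. Of the 7 targeted protease genes, 6 were analysed, and reads remained for each in KO libraries. Tmprss11a had 75.6 to 87.0 CPM in KO tongues against 218 to 237 CPM in WT tongues, and Tmprss11b had 0.322 to 1.15 CPM in KO epidermis against 3.62 to 3.81 CPM in WT epidermis. Tmprss11g overlapped between genotypes in both tissues, at 1.97 to 3.67 CPM in KO tongues against 2.17 to 4.37 CPM in WT tongues. Tmprss11a overlapped in epidermis, at 1.1 to 2.49 CPM in KO libraries against 2.15 to 2.29 CPM in WT libraries. The tissue labels held against marker genes. Skeletal muscle markers summed to 28600 to 51800 CPM in tongues and 93.4 to 698 CPM in epidermis, and suprabasal epidermal markers summed to 401 to 667 CPM in tongues and 29700 to 55900 CPM in epidermis. WT epidermis library 1 and KO tongue library 3 stood apart from the rest of their tissue. The first had a mean correlation of 0.898 with the other epidermis libraries, against 0.954 to 0.966 for the others. Mitochondrial rRNA made up 44.6% of its reads, against 20.1% to 23.8% in the other epidermis libraries and 35.5% to 40.8% in tongues. This library had the lowest Eya1 level of the WT epidermis libraries and the lowest Tbx1 and Msx1 levels of all epidermis libraries, and the part of library quality in these was not tested. KO tongue library 3 had 0.970, against 0.979 to 0.985 for the others.

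The 2 epithelial factors were far higher in tongue than in epidermis, in both genotypes. Sox2, an HMG-box factor needed for taste buds and tongue epithelium, had 6.52, 6.59, 8.15 and 6.44 CPM in KO tongues and 8.02, 7.86, 6.88 and 7.39 CPM in WT tongues. In epidermis it had 0.47, 0.402, 0.282 and 0.346 CPM in KO libraries and 0.34, 0.426 and 0.423 CPM in WT libraries. The tongue and epidermis ranges were separate, and Sox2 was the most even gene among the 8 tongues, with a highest-to-lowest ratio of 1.26. The log2 difference of tongue minus epidermis was 4.18 in KO mice (SE 0.28, edgeR adjusted p = 1.77e-07) and 4.24 in WT mice (SE 0.26, edgeR adjusted p = 1.21e-06). Merkel cells of the skin also use Sox2, and the 7 Merkel markers summed to 8.93 to 12.4 CPM in KO epidermis and 7.36 to 8.68 CPM in WT epidermis. Their part in the Sox2 reads of epidermis was not tested.

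Pitx1, a paired-like homeodomain factor of oral ectoderm and mandible, had 8.41, 6.81, 16.6 and 8.13 CPM in KO tongues and 7.92, 8.42, 5.07 and 7.55 CPM in WT tongues. In epidermis it was at 0, 0.161, 0.113 and 0.231 CPM in KO libraries and at 0.113, 0 and 0.0529 CPM in WT libraries. Tongues were thus high in every library and epidermis close to nothing, and KO tongue library 3 was the one tongue far above the rest. The log2 difference was 6.27 in KO mice (SE 0.53, edgeR adjusted p = 1.04e-06), from 505 tongue reads against 8 epidermis reads. In WT mice only 2 epidermis reads stood against 356 tongue reads, a ratio of 167 with a 95% counting interval of 45.8 to 1380 (edgeR adjusted p = 4.66e-06). Counting intervals cover counting error only.

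**Figure D1:**
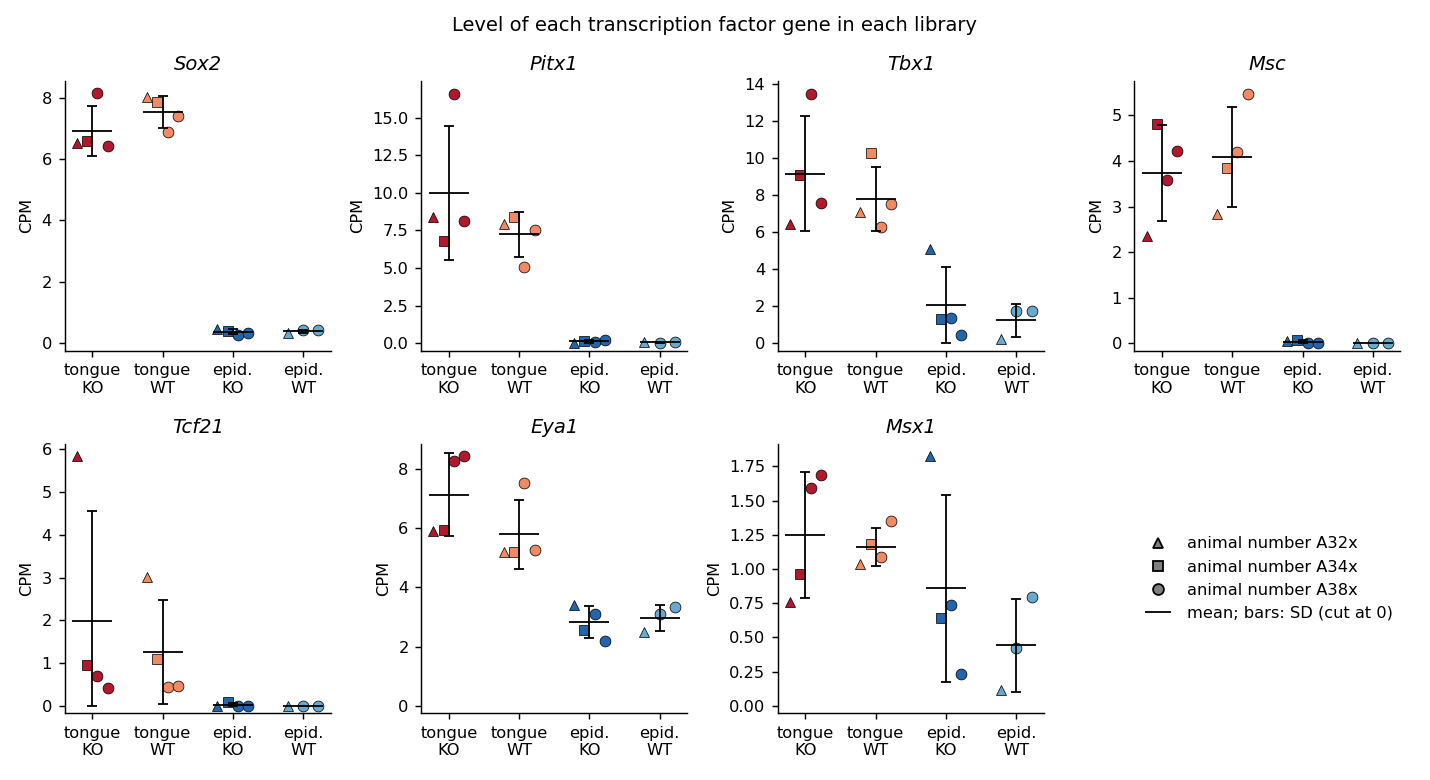
Level of each of the 7 genes in every library, in CPM. Points are single libraries, grouped as KO tongue, WT tongue, KO epidermis and WT epidermis. Sox2, Pitx1, Eya1, Tbx1, Msc and Tcf21 separate the tissues without overlap, and Msx1 overlaps between tissues in KO mice. The share of all genes that separate so was not counted, so this is a description. Between the tissues 63.8% of all genes tested in KO mice and 63.6% in WT mice were called in either direction.

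The factors of head mesoderm showed 2 patterns, near absence from epidermis for Msc and Tcf21 and a variable epidermal level for Tbx1. Tbx1, a T-box factor of the pharyngeal arches, had 6.44, 9.1, 13.5 and 7.59 CPM in KO tongues and 7.07, 10.3, 6.3 and 7.55 CPM in WT tongues. In epidermis it had 5.07, 1.29, 1.36 and 0.462 CPM in KO libraries and 0.226, 1.76 and 1.75 CPM in WT libraries. KO epidermis library 1 was well above the other epidermis libraries, yet every tongue was still above it. Tbx1 was higher in tongue by a log2 difference of 2.12 in KO mice (SE 0.58, edgeR adjusted p = 0.00766) and 2.61 in WT mice (SE 0.48, edgeR adjusted p = 0.0011). Without KO epidermis library 1 the KO difference was 3.15, and within range A38x of the animal numbers it was 3.61 in KO mice and 2.07 in WT mice.

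Msc, a bHLH repressor of the jaw muscle lineage also called MyoR, had 2.35, 4.81, 3.58 and 4.22 CPM in KO tongues and 2.83, 3.85, 4.2 and 5.48 CPM in WT tongues. In epidermis it was at 0.0522, 0.0805, 0 and 0 CPM in KO libraries and at 0 in all 3 WT libraries. In KO mice 202 tongue reads stood against 2 epidermis reads, a ratio of 126 with a counting interval of 34.4 to 1050 (edgeR adjusted p = 1.33e-06). In WT mice the 206 tongue reads gave a level at least 64.3-fold higher than the floor of 3 reads over the 3 epidermis libraries (edgeR adjusted p = 2.64e-05). The lowest tongue of each genotype was library 1, and these 2 tongues also had the lowest skeletal muscle marker sums, 31600 CPM in KO and 28600 CPM in WT, against 34800 to 51800 CPM in the others. KO tongue library 3 had the highest sum, 51800 CPM, with Msc at 3.58 CPM, below the other KO tongues except library 1. KO epidermis library 2, which held 1 of the 2 epidermal Msc reads, had the highest muscle marker sum of the epidermis libraries, 698 CPM. KO epidermis library 1, which held the other read, had a sum of 208 CPM. WT epidermis library 3 had 265 CPM and no Msc read. The part of muscle content in these levels was not tested.

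Tcf21, a bHLH factor of mesoderm and of organ stroma, was read from every tongue but almost never from epidermis. It had 5.84, 0.962, 0.696 and 0.422 CPM in KO tongues and 3.02, 1.1, 0.435 and 0.477 CPM in WT tongues. In epidermis there was 1 read, in KO library 2, at 0.0805 CPM, and the 3 WT libraries were at 0. The 104 KO tongue reads against that 1 read gave a ratio of 130 with a counting interval of 22.8 to 5180. In WT mice the 58 tongue reads gave a level at least 18.1-fold higher than the floor. Tcf21 did not pass the filter on low counts in either tissue comparison. In the 3 other settings for KO mice and the 5 for WT mice that let it through, it was called higher in tongue, with edgeR adjusted p between 0.000675 and 0.0091 in KO mice and between 0.00297 and 0.0147 in WT mice. With 1 read in all of epidermis, Tcf21 could enter a fit only through its tongue reads. The direction of these calls was thus set in advance, and they add no support.

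Tcf21 also differed between tongues far more than any of the other 6 genes, with a highest-to-lowest ratio of 13.8. The other 6 had ratios of 1.26 for Sox2 to 3.27 for Pitx1. Library 1 of each genotype was highest, and the labels give those 2 animals numbers in the range A32x. The 4 tongues of the range A38x had few Tcf21 reads, 7 and 7 in KO mice and 6 and 6 in WT mice. In a fit of range A32x against the other ranges within tongue, with genotype as a covariate and chosen after seeing the data, Tcf21 was higher by 2.68 on the log2 scale (SE 0.36, edgeR adjusted p = 0.00712). In that fit 1.48% of 15741 genes were called in either direction, and none of the other 6 genes was among them. Msc came nearest of the other 6, at -0.75 (edgeR adjusted p = 0.149).

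Genes of lung epithelium followed the same libraries. The summed level of the 4 surfactant genes Sftpa1, Sftpb, Sftpc and Sftpd, proteins that line the lung air space, was 509, 47.1, 11.9 and 10.2 CPM in KO tongues and 303, 72, 19.7 and 17.6 CPM in WT tongues. Those are the same 2 libraries at the top, followed by both A34x tongues, with the A38x tongues lowest. In epidermis the surfactant sum was 0.113 to 3.3 CPM. A list of 13 lung genes chosen after seeing these values summed to 56.1 to 997 CPM in KO tongues, 70.1 to 652 CPM in WT tongues and 217 to 377 CPM in epidermis. Of the 13, 10 were called higher in the A32x tongues, where 164 of 15741 genes were called higher. Both the list and the fit were chosen after seeing these libraries, so the 10 calls add no support. Slc34a2 and Abca3 made up most of the epidermal sum, and Nkx2-1, the defining lung factor, was at 0 in epidermis of both genotypes, as was Sftpd in WT epidermis. The part of lung RNA in the Tcf21 reads was not tested.

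**Figure D2:**
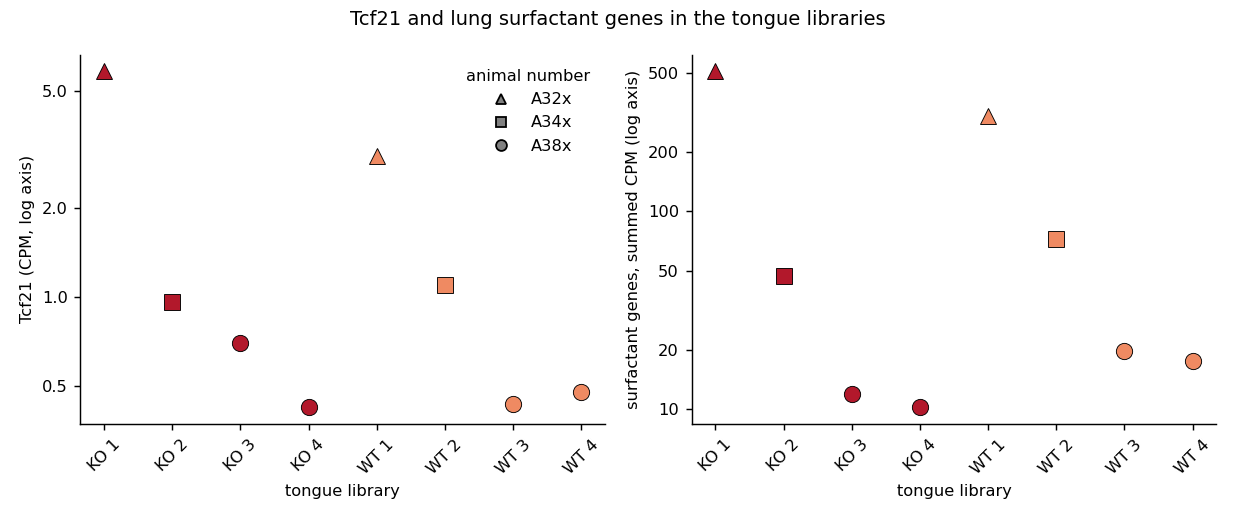
Tcf21 level (left) and summed level of 4 surfactant genes (right) in the 8 tongue libraries, in CPM on log axes. Shapes give the range of the animal number in the labels. The A32x libraries stand highest on both axes, with Tcf21 at 5.84 CPM in KO and 3.02 CPM in WT, and the A38x libraries stand lowest.

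Eya1 and Msx1 were present in both tissues. Eya1 had 5.91, 5.92, 8.25 and 8.43 CPM in KO tongues and 5.19, 5.19, 7.53 and 5.25 CPM in WT tongues. In epidermis it had 3.39, 2.57, 3.11 and 2.19 CPM in KO libraries and 2.49, 3.09 and 3.33 CPM in WT libraries. No tongue overlapped with an epidermis library. The log2 difference of tongue minus epidermis was 1.33 in KO mice (SE 0.24, edgeR adjusted p = 0.000454) and 1.0 in WT mice (SE 0.25, edgeR adjusted p = 0.00601).

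Msx1 was the gene whose tissue ranges came closest. It had 0.758, 0.962, 1.59 and 1.69 CPM in KO tongues and 1.04, 1.18, 1.09 and 1.35 CPM in WT tongues. In epidermis it had 1.83, 0.644, 0.734 and 0.231 CPM in KO libraries and 0.113, 0.426 and 0.793 CPM in WT libraries. KO epidermis library 1 was above every tongue, so the KO tissues overlapped, while the WT tissues did not. In KO mice the log2 difference was 0.51 (95% interval -0.65 to 1.66, edgeR adjusted p = 0.424), and without KO epidermis library 1 it was 1.22 (edgeR adjusted p = 0.0422). In WT mice it was 1.31 (SE 0.47, edgeR adjusted p = 0.0348). That call was kept in 9 of 18 other settings, over which the adjusted p ran between 0.012 and 0.0971. It was lost without any 1 of the 4 WT tongues and without WT epidermis library 2. Without WT epidermis library 1 it was kept at 0.99 (edgeR adjusted p = 0.0356).

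In KO mice 5 of the 6 genes tested were higher in tongue, where 31.1% of 16398 genes were called higher and 32.7% lower. In WT mice all 6 tested were higher in tongue, where 31.6% of 16577 genes were called higher and 32% lower. Sox2, Pitx1 and Msc entered both counts through their tongue reads, as they did not pass the filter in epidermis alone. A call of lower was hardly open to them, so these counts are a description. Tcf21 was outside both counts. Sox2, Pitx1, Eya1, Tbx1 and Msc were called in all 19 other settings for KO mice and all 18 for WT mice. Tongue and a separated epithelial sheet differ in cell content, and in bulk RNA fewer cells of a type and less RNA per cell cannot be told apart. Fibroblast markers, for one, summed to 6430 to 7850 CPM in tongues and 487 to 923 CPM in epidermis, and 6 oral keratinocyte markers summed to 6120 to 9940 CPM in tongues and 25.5 to 102 CPM in epidermis. Their part in the tissue differences was not tested.

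**Figure D3:**
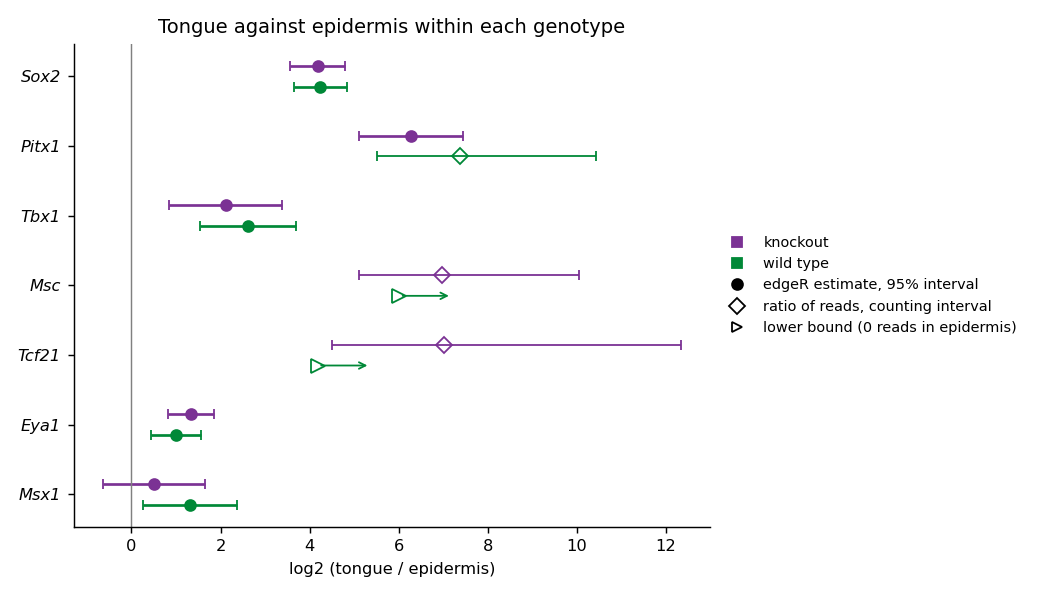
Log2 ratio of tongue over epidermis for the 7 genes, KO above WT. Filled points are edgeR estimates with 95% intervals, open diamonds are ratios of reads with counting intervals where epidermis had 1 to 3 reads, and open triangles with arrows are lower bounds where epidermis had 0 reads. Only the KO interval of Msx1, -0.65 to 1.66, spans 0.

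Per kilobase of exon, on GENCODE M21 lengths, the order in WT tongue was Sox2 (3.66 CPM per kb), Pitx1 (2.73), Tbx1 (2.22), Msc (1.61), Eya1 (0.741), Tcf21 (0.535) and Msx1 (0.376). Of these neighbours, only Sox2 and Pitx1, and Msc and Eya1, had ranges that did not overlap. In KO tongue Pitx1 stood first at 3.76 CPM per kb and Sox2 second at 3.37, with overlapping ranges. In WT epidermis Eya1 (0.38 CPM per kb) and Tbx1 (0.353) came first, then Sox2 (0.193), Msx1 (0.143) and Pitx1 (0.0208), all with overlapping neighbours, and Msc and Tcf21 were at 0.

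By likeness of profile over the 15 libraries, measured as the root mean square difference of centred log2(CPM + 0.5) values against 13775 genes, the nearest genes differed from member to member. Msc was closest to Mir654 (0.12) and to Mymx (0.177), a muscle fusion protein gene. Tcf21 was closest to Inmt (0.25) and Krt8 (0.332). Both were higher in the A32x tongues, at 2.74 and 1.84 on the log2 scale. Their choice by likeness to Tcf21 in these same libraries favours that, so it is not separate evidence. Tbx1 was closest to Ret (0.317), Pitx1 to Ccdc85a (0.236), Sox2 to Vash1 (0.182), Eya1 to Bhlhb9 (0.18) and Msx1 to Fhod3 (0.256). The profiles share libraries and the tissue contrast, and likeness is a description.

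Related gene lists gave a mixed picture between the tissues in WT mice, beside a median log2 difference of -0.03 over all genes tested. Of the 9 branchiomeric and head mesoderm regulators 8 were higher in tongue and 1 lower, with a median of 4.93. Among them Ebf2, a factor of mesenchyme, had 29.4 ± 2.51 CPM in WT tongue (SD, n = 4) and 0.325 ± 0.0535 CPM in WT epidermis (SD, n = 3), a log2 difference of 6.52. The exception was Lhx2, known from hair follicle stem cells, at 0.0812 ± 0.00927 CPM in WT tongue and 20 ± 10.1 CPM in WT epidermis.

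Of 27 tested mesenchymal factors 20 were higher in tongue and 5 lower, with a median of 5.19, or 4.50 with the 2 genes without epidermis reads set to their lower bound. Hand2, a bHLH factor of the lower jaw, had 7.41 ± 1.18 CPM in WT tongue and 0.0377 ± 0.0654 CPM in WT epidermis (SD, n = 4 and 3). Its log2 value of 7.94 rests on almost no epidermis reads and depends on the prior count. Sox9 was at -3.0. Of 9 myogenic regulators 8 were higher and 0 lower, with a median of 7.84 (7.30 with the 1 gene without epidermis reads at its bound). Myf6 (9.52) and Myog (8.61), the muscle differentiation factors, led. In epidermis alone 12 mesenchymal, 5 branchiomeric and 3 myogenic genes passed the filter, against 27, 9 and 9 in the WT tissue comparison. Many of these genes thus entered through their tongue reads, and a call of lower was hardly open to those. The counts and medians of these lists, in both genotypes, are a description. Of 8 genes of the Eya1 network 4 were higher and 1 lower, with Eya4, a relative of Eya1, at 3.97 and Dach2 at -2.02. Of all genes tested, 31.6% were higher and 32% lower, and beside these shares 8 of 15 oral and lingual epithelial regulators were lower in tongue and 5 higher, and 13 of 20 papilla and tooth signalling genes were lower and 5 higher. Pax9, a factor of filiform papillae, was at 8.07, while Shh, the papilla and hair follicle signal, had 0.227 ± 0.109 CPM in WT tongue and 8.02 ± 3.0 CPM in WT epidermis (SD, n = 4 and 3). In KO mice, where 31.1% of all genes tested were higher and 32.7% lower, 8 of 9 branchiomeric regulators were higher and 1 lower. Of 26 mesenchymal factors 19 were higher and 5 lower, and of 9 myogenic regulators 8 were higher and 0 lower. Of 8 genes of the Eya1 network 4 were higher and 2 lower. Of 14 epithelial regulators 8 were lower and 4 higher, and of 20 signalling genes 13 were lower and 5 higher.

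**Figure D4:**
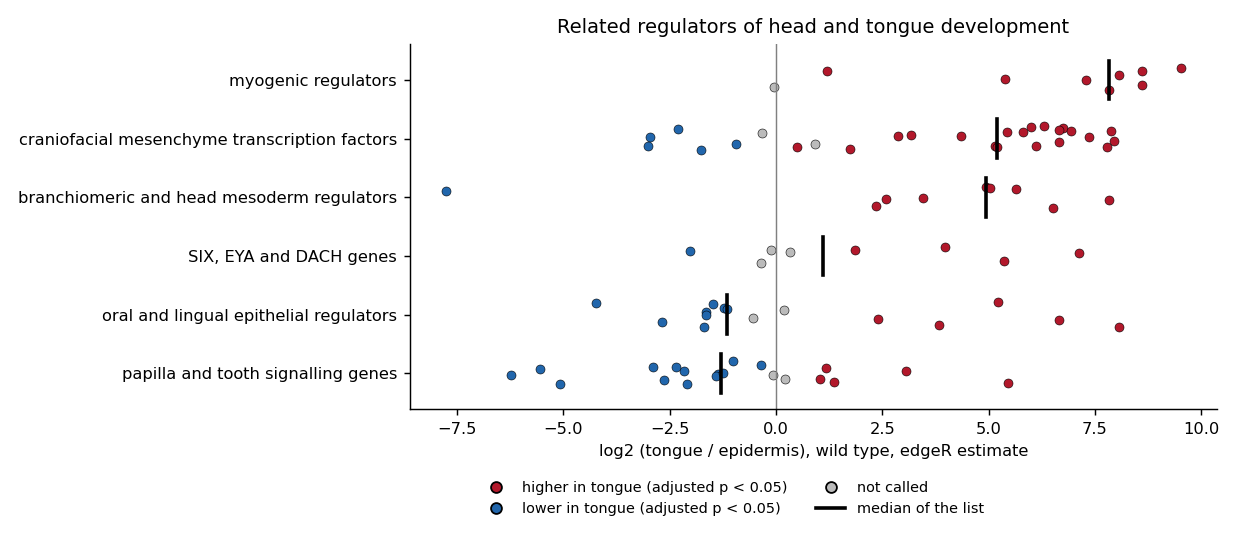
Log2 difference of tongue minus epidermis in WT mice for the genes of the 6 related lists, by list. Points are genes, coloured by call at an adjusted p of 0.05, and bars are list medians. Estimates of genes with few or no epidermis reads depend on the prior count. Mesenchymal, branchiomeric and myogenic genes, many of which passed the filter only through their tongue reads, lie mostly above 0. The epithelial and signalling lists have medians of -1.16 and -1.30.

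The genotype comparison asked whether any of these genes changed with loss of the protease cluster. In tongue, 0 of 7 genes were called, where 0.0127% of 15741 genes were called in either direction by edgeR, and none of the 7 had an unadjusted p under 0.05 in edgeR, DESeq2 or limma-voom. The largest log2 differences of KO minus WT were 0.69 for Tcf21 (95% interval -1.41 to 2.78) and 0.44 for Pitx1 (-0.16 to 1.04). Sox2 was at -0.14 (-0.47 to 0.18), Eya1 at 0.28 (-0.15 to 0.71), Tbx1 at 0.20 (-0.31 to 0.72), Msc at -0.15 (-0.70 to 0.41) and Msx1 at 0.08 (-0.60 to 0.76). KO and WT tongues overlapped for every gene. Without KO tongue library 3, the library that stood apart, Pitx1 was at 0.10, Sox2 at -0.22, Tbx1 at -0.03 and Msx1 at -0.03. Without KO tongue library 1, which carries the highest Tcf21 and surfactant levels, the Tcf21 value was -0.84. Within range A38x alone, Pitx1 was at 0.93 (edgeR adjusted p = 0.358) and Sox2 at 0.01, in a fit that called 6 of 15975 genes higher and 9 lower.

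In epidermis, 3 genes passed the filter on low counts and 0 were called, against 0% of 16073 genes. Eya1 was at -0.08 (95% interval -0.77 to 0.61), Tbx1 at 0.69 (-1.17 to 2.55) and Msx1 at 0.86 (-0.78 to 2.51), each with an edgeR adjusted p of 1. None had an unadjusted p under 0.05 in edgeR, DESeq2 or limma-voom, and over all genes 187 did in edgeR. KO library 1 was highest and WT library 1 lowest for both Tbx1 and Msx1, and both libraries are in range A32x. Without WT epidermis library 1 Tbx1 was at 0.25 and Msx1 at 0.52. Without KO epidermis library 1 Tbx1 was at -0.35, and within range A38x Tbx1 was at -0.95 and Msx1 at -0.34. In the A38x fit, of 2 KO and 2 WT libraries, 374 of 15760 genes were called higher and 230 lower, none of them among the 3 genes tested. Sox2, Pitx1, Msc and Tcf21 did not pass the filter, with at most 25 reads each over the KO epidermis libraries and 19 over the WT ones.

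The difference of the KO effect between the tissues was tested for all 7 genes, and 0 were called, against 0% of 17935 genes. The values ran between -2.31 for Msc (95% interval -4.80 to 0.19) and 0.34 for Eya1 (-0.36 to 1.04), with an edgeR adjusted p of 1 for each, and 299 of all genes had an unadjusted p under 0.05. For Msc both genotypes' epidermis levels rest on 2 reads or fewer. In the related lists 0 genes were called with genotype in either tissue. Eya2, a relative of Eya1, had 4.87 ± 1.14 CPM in KO tongues and 2.95 ± 0.495 CPM in WT tongues (SD, n = 4 each; log2 difference 0.70, the smallest p of its list at 0.00732, edgeR adjusted p = 0.939).

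**Figure D5:**
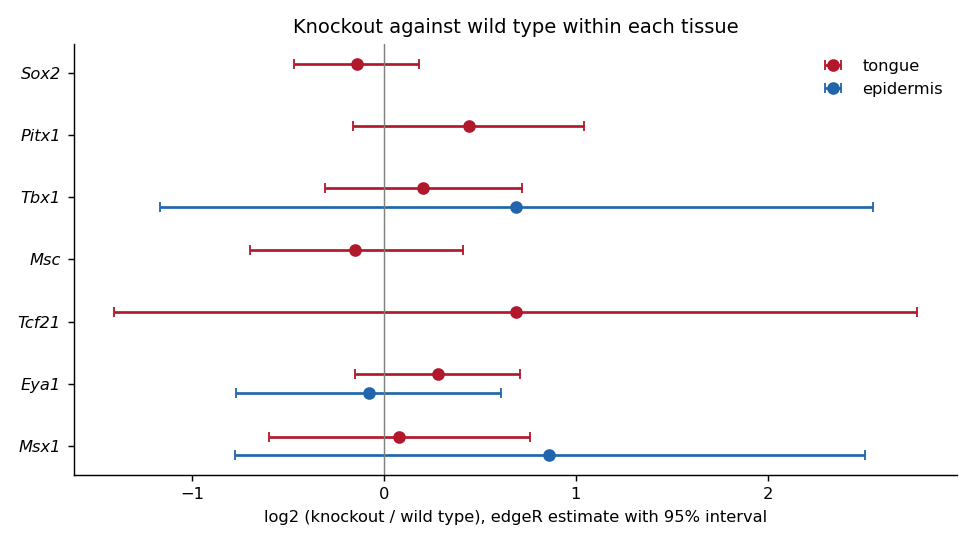
Log2 difference of KO minus WT for each gene with 95% intervals, in tongue for 7 genes and in epidermis for the 3 that passed the filter. All intervals span 0, and those of Tcf21 in tongue and Tbx1 and Msx1 in epidermis are the widest.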

How the data were processed

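RNA-seq was measured in 15 libraries. The aligner was STAR 2.5.2a and the build GRCm38.p3 (mm10), according to the submitters' processing notes. Those notes list DESeq2, edgeR and limma as well, with no role, and the counter, strand setting and annotation were not found there. Raw counts per Ensembl gene, which were tested, and signal values, which checked as those counts divided by a constant of each library, were deposited. Entries of 2 transgenes (beta-lac, LacZ) stayed out of library sizes and tests. Paired reads of 37 bases came from cDNA made with the SMARTer V4 kit, per the labels.

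Genes were filtered with filterByExpr (minimum count 10), scaled by TMM and tested with edgeR 4.0.16 (quasi-likelihood, robust, two-sided) in R 4.3.3. P-values were Benjamini-Hochberg adjusted over every gene that passed the filter (threshold 0.05), and intervals are at 95%. CPM used TMM factors over all 15 libraries. Alternatives were DESeq2 1.42.0, limma-voom (limma 3.58.1), other scalings, no filter, blocks and left-out libraries. The fits were also tested on simulated data. Members and lists were chosen with earlier results of these data known. Related genes were named from up to 3 called genes per list and direction with the largest change and at least 1 CPM, and in the genotype comparisons from the gene of smallest p per list.

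Groups came from the titles. The A-numbers in the labels, read as animals, gave 9 animals, 6 with both tissues, in 3 ranges whose meaning the labels do not state. KO tongue and KO epidermis libraries of the same number were the same animal. The main fits held group alone, so the SEs and p-values of the tissue comparisons did not use this pairing. Deviations from the group mean correlated at -0.165 to 0.218 between both tissues of an animal. With animal as a block, 5 genes were called higher in tongue in KO mice and 6 in WT mice, as in the main fits. In WT mice that fit rests on the 2 animals with both tissues. Their libraries are the ones of the setting with range A38x alone, so the 2 settings are not separate checks. In epidermis, KO and WT libraries of the same number deviated together, with correlations of 0.652, 0.169 and 0.505, and in tongue they did not in every pair (0.578, 0.114, -0.137 and 0.236). Beyond these numbers nothing states that samples were separate animals, so the spread behind each p-value may be technical in part. No 2 libraries of a group agreed within counting noise.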

Additional observations from a re-analysis of the deposited data

Results flagged for a closer look

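Among 21 sets of a gene and a group of 4 libraries, 5 had a library that stood apart by its gap to the nearest library over the group's range. Chance gives about 1 in 20 for independent, normally distributed values. These sets share libraries and some rest on few reads, so the 5 cannot be set against that share. KO tongue library 3 was high for Sox2, at 8.15 CPM, and for Pitx1, at 16.6 CPM. WT tongue library 3 was high for Eya1, at 7.53 CPM. KO tongue library 1 was high for Tcf21, at 5.84 CPM, and it also held the highest surfactant sum, 509 CPM. KO epidermis library 2 held the 1 epidermal Tcf21 read, at 0.0805 CPM, and a group with 1 read is always flagged.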

How the results depend on the processing

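Over the alternatives run, the number of the 7 genes called moved by no more than 1.5 times in any comparison. Over all genes, the genotype calls did move. Within range A38x, 374 genes were higher and 230 lower in KO epidermis, against 0 called over all ranges, and 6 were higher and 9 lower in KO tongue, against 0 higher and 2 lower over all ranges. For the difference between tissues that setting called 3 genes higher and 16 lower, against 0. DESeq2 called 4 genes in tongue and 1 each in epidermis and in the difference; the other settings called at most 3 genes. Leaving out a library gave 5 to 6 genes called in KO tissue and 5 to 7 in WT tissue. The setting without range A32x was chosen after seeing the data. In WT tissue 99 of 108 gene values kept direction and call and 9 lost the call, all of them Msx1. The Msx1 value was 1.07 with library size alone, 1.41 with no filter and 1.35 in 1 fit of all libraries, and 0.99 to 1.97 with a library left out. In KO tissue 3 of 114 values gained a call, again Msx1, at 1.85 within range A38x, 1.41 without range A32x and 1.22 without KO epidermis library 1. The replicate block is the number in the title. In WT tissue it joins libraries of different animals, so there it is no adjustment for pairing. With this block, Msx1 in WT tissue was 1.39 (edgeR adjusted p = 0.0908) and Eya1 in the epidermis genotype comparison 0.02. The block changed no other call.

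All values that changed direction were uncalled values of the genotype comparisons. In tongue Sox2 was 0.01 within range A38x, and leaving out a library gave -0.03 to 0.37 for Tbx1, -0.29 to 0.02 for Msc, -0.84 to 1.54 for Tcf21 and -0.12 to 0.26 for Msx1. In epidermis, leaving out a library gave -0.21 to 0.02 for Eya1 and -0.35 to 1.02 for Tbx1. Within range A38x and without range A32x, epidermal Tbx1 was -0.95 and -0.77 and Msx1 -0.34 and -0.20. For the difference between tissues the same settings gave Sox2 0.46 and 0.21, Tbx1 1.54 and 1.04 and Msx1 0.77 and 0.39. There the animal block gave Sox2 0.08, Tbx1 0.46 and Tcf21 0.55, and Tcf21 was 0.10 in DESeq2 and 0.06 in limma-voom. A library left out gave -0.20 to 0.09 for Sox2, -0.81 to 0.57 for Tbx1 and -2.32 to 0.67 for Tcf21. With library size alone the median of all genes was -0.21 in WT tissue and -0.30 in KO tissue. The cause was not tested. Depth limits Pitx1, Msc and Tcf21 in epidermis, at 8 reads or fewer per group.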
